A study of Macaca mulatta with 24 samples.

Results

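The heat shock and chaperone genes described here are those whose symbol begins with HSPA, HSPB, HSPD, HSPE, HSPH, HSP90 or DNAJ. They were taken by symbol alone, from probe sets that the array annotation pairs with a single gene. The rule found 109 probe sets of 50 genes among 52766 probe sets that are not array controls. Of these, 83 probe sets of 43 genes had a mean log2 intensity at or above the median of all those probe sets (5.62) and entered the tests, and 26 lay below it. No probe set carried an HSPD or HSPE symbol, and HSPA1A, HSPA1B, HSPA5 and HSPB1 were not analysed here.

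Molecular chaperones bind unfolded or partly folded proteins and keep them from aggregating. HSP70 proteins take up and release their clients in an ATP-driven cycle that J-domain proteins (the DNAJ genes) start and HSP110 proteins and other nucleotide exchange factors complete, and HSP90 acts later, on near-native clients such as kinases and steroid receptors. Small heat shock proteins hold unfolded clients without ATP. Neurons rely on constitutive members of these families, among them HSPA8 with the J-domain protein auxilin (DNAJC6), which strip clathrin from synaptic vesicles, and stress further induces a subset of the families through the transcription factor HSF1.

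RNA was measured on 24 one-colour Affymetrix rhesus arrays from 3 adolescent rhesus monkeys (Macaca mulatta), the left and right hemisphere of each giving 4 neocortical areas: prefrontal area 46 (A46), primary motor cortex at its forelimb region (M1) and the premotor areas PMv (ventral) and PMd (dorsal). Animals 1 and 2 were male and animal 3 was female; animal 2 was 2.6 years old and the other two 2.7 years. All were group-caged and untreated, and all were perfused with ice-cold heparinised saline after a pentobarbital overdose before the areas were cut out by sulcal landmarks on ice. The study set motor areas against prefrontal cortex within the same brains, so the animal is the replicate (n = 3), hemispheres were averaged, and a value written ± is the SD of 3 animals.

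Array medians of intensity lay between 47.92 and 51.67. The left PMv arrays of animals 1 and 2 stood apart, with interquartile ranges of log2 values of 2.58 and 2.67 against 2.73 to 2.91 on the other arrays. Neuronal markers were present in every area (summed log2 level 13.79 to 14.26 over 7 genes). By the test used below, 4 of these 7 differed between M1 and A46, 3 higher and 1 lower in M1. Of 6 oligodendrocyte markers, 5 rose in M1 over A46 (median difference 1.27 on the log2 scale), and their summed log2 level was 13.23 to 13.68 on the A46 arrays and 14.17 to 14.62 on the M1 arrays. Of 12 immediate early genes, 8 fell (median difference -0.42). The shares that differed were 57.1% of neuronal, 83.3% of oligodendrocyte and 66.7% of immediate early genes, against 12.9% of all tested probe sets. They were 16.7%, 30% and 20% for astrocyte, microglia and endothelial markers and 0% for blood and meningeal ones. In pieces of cortex, fewer cells of a type and less RNA per cell cannot be told apart, and the part of cell composition in the differences below was not tested.

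Between M1 and A46, the cytosolic HSP90 genes HSP90AB1 and HSP90AA1 (3 of the 5 tested HSP90 probe sets), DNAJA4, DNAJB5 and HSPBP1 were lower in M1, and the HSP70 genes HSPA8, HSPA12A and HSPA9 were higher. By limma with animal as a block and Benjamini-Hochberg adjustment over 26383 probe sets, 11 of the 83 chaperone probe sets passed an adjusted p of 0.05, 4 higher and 7 lower. This share of 13.3% was close to the 12.9% called among all tested probe sets, and by direction 7.49% of all tested probe sets were higher and 5.36% lower. The median difference was -0.011 on the log2 scale over the chaperone probe sets and -0.011 over all tested ones. The 4 HSP70 calls were all higher in M1, and the calls in HSP90, DNAJA and DNAJB and that of HSPBP1 were lower.

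**Figure D1:**
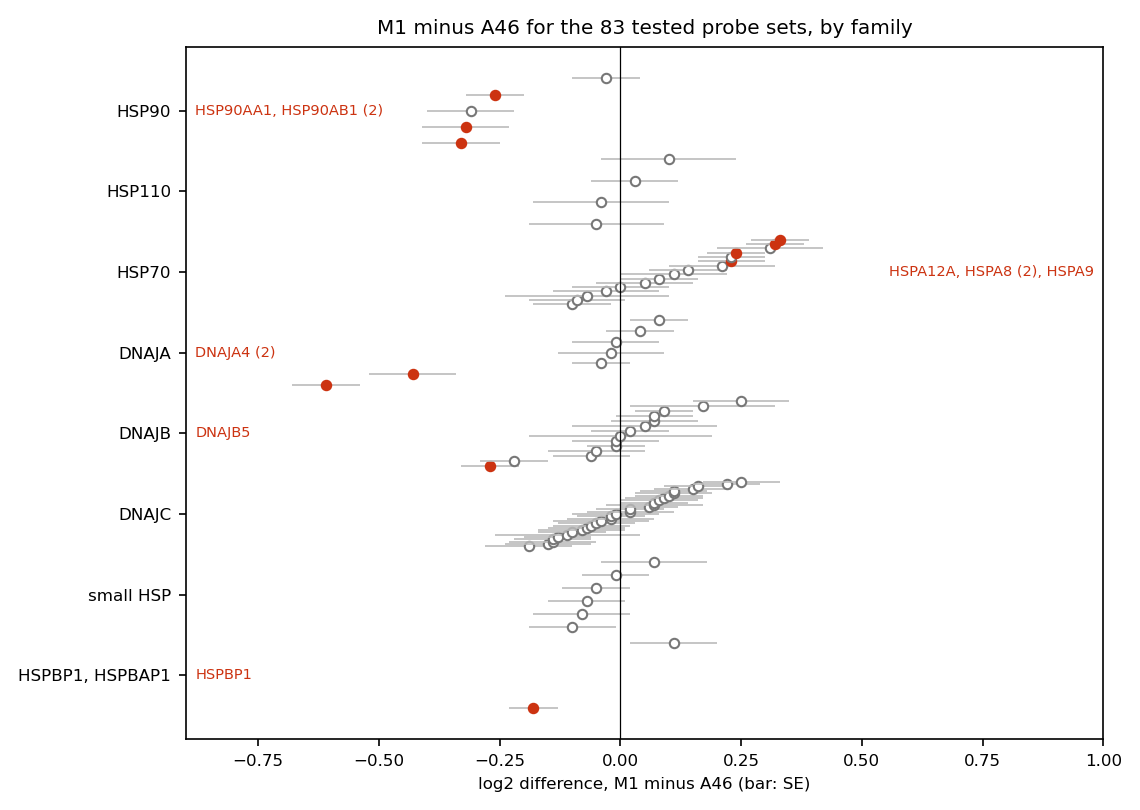
Log2 difference between M1 and A46 (x axis) for each of the 83 tested probe sets, arranged by family (y axis), with the limma standard error as a bar. Filled red points passed the adjusted p of 0.05 and their genes are named at the side, with the number of probe sets where it is above 1; 4 of 5 HSP90 probe sets lie between -0.33 and -0.26, and DNAJA4 reaches -0.61.

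The same comparison of all 3 motor areas with A46 called 11 probe sets (4 higher, 7 lower; 13.3% against 9.96% of all tested, of which 5.26% higher and 4.7% lower). PMd against A46 called 2 (background 1.95%), M1 against PMv 1 (background 1.87%) and M1 against both premotor areas 1 (background 2.16%). PMv against A46 called 0 (background 1.23%), although 25 of the 83 (30.1%) had an unadjusted p under 0.05, against 18.8% of all tested probe sets. M1 against PMd and PMd against PMv called 0 each (backgrounds 0.33% and 0.00758%). At an unadjusted p under 0.05 they had 5 (6.02%, against 7.78% of all tested) and 7 (8.43%, against 5.4%). Several of these counts changed without animal 3. The PMv arrays left are then those of animals 1 and 2, including the left ones with a narrow spread of log2 values. The part of those arrays in the counts that follow was not tested. With animal 3 left out, M1 against PMv called 27 of the 83 (32.5%, against 14.5% of all tested), 26 of them higher in M1 (12.2% of all tested were). PMd against A46 then called 17 (20.5%, against 11.6%), 12 of them lower in PMd (5.84% of all tested were). PMd against PMv then called 13, each higher in PMd (15.7%, against 5.3% of all tested), and M1 against PMd still called 0. Without animal 1 or 2 each of these 4 comparisons called 0. In the order given, 0.258%, 0.152%, 0.00379% and 0.125% of all tested probe sets were called without animal 1. Without animal 2 the shares were 0.0796%, 0.0455%, 0% and 0%. A test for any difference among the 4 areas called 5 (6.02%, background 6.53%), from DNAJA4, HSPA8 and HSPA12A. Over the 3 motor areas together the calls besides HSP90 were DNAJA4 (-0.42 and -0.35), DNAJB5 (-0.22), HSPA8 (0.21), HSPA12A (0.22), HSPA9 (0.19) and DNAJC25 (0.23). Without animal 1 only DNAJA4 passed this comparison (limma adjusted p = 0.00917), and without animal 2 none did. Of all tested probe sets 3.26% passed it without animal 1 and 0.682% without animal 2. These were 9 comparisons of areas, each adjusted over its own probe sets.

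HSP90 is a dimeric ATPase with an inducible cytosolic form, HSP90AA1, a constitutive one, HSP90AB1, and an endoplasmic reticulum form, HSP90B1. On the brightest HSP90AB1 probe set the 6 A46 arrays read 12.83 to 13.01 (median 12.93), PMd 12.62 to 12.93 (median 12.76), PMv 12.38 to 12.97 (median 12.60) and M1 12.53 to 12.85 (median 12.62). Of the M1 arrays only the left one of animal 3 reached into the A46 range. The level was 12.93 ± 0.03 in A46 and 12.66 ± 0.15 in M1, a log2 difference of -0.26 (SE 0.06, 1.20-fold lower, limma adjusted p = 0.0176). A second HSP90AB1 probe set gave -0.32 (SE 0.09, limma adjusted p = 0.0331), and the third -0.31 (SE 0.09), just outside the threshold at a limma adjusted p of 0.0511. On that last probe set every M1 array (11.75 to 12.11) lay below every A46 array (12.13 to 12.22). Over the 3 motor areas together all 3 HSP90AB1 probe sets passed, by -0.23, -0.30 and -0.31 (limma adjusted p = 0.0157, 0.0275 and 0.0195).

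HSP90AA1, the form that heat shock induces, was lower in M1 by a similar amount. Its arrays read 7.47 to 7.96 in A46 (median 7.65), 7.11 to 7.89 in PMd (median 7.28), 6.99 to 7.84 in PMv (median 7.22) and 7.06 to 7.72 in M1 (median 7.29). A46 and M1 overlapped only through the M1 arrays of animal 3, and within animals M1 was below A46 by 0.45, 0.37 and 0.17 on the log2 scale in the order 1, 2, 3. The fitted difference was -0.33 (SE 0.08, 1.26-fold lower, limma adjusted p = 0.0213), and -0.29 (SE 0.07, adjusted p = 0.0181) over the 3 motor areas. HSP90B1 did not differ at this precision (-0.03, SE 0.07, limma adjusted p = 0.87).

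The HSP90 calls between M1 and A46 were lost without animal 1 or 2. Calls over all tested probe sets fell as well, from 12.9% to 6.25% without animal 1 and 1.53% without animal 2. Without animal 3 they rose to 20.5%. The same shares are the background for calls between M1 and A46 that were lost in this way below. For HSP90AB1 on its brightest probe set the limma adjusted p was 0.208 when animal 1 was left out, 0.327 when animal 2 was and 0.000103 when animal 3 was. For HSP90AA1 the limma adjusted p was 0.18, 0.34 and 0.00187 in the same order, and the difference stayed between -0.41 and -0.27. The second HSP90AB1 probe set gave 0.212, 0.446 and 0.000143 for the limma adjusted p.

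Among HSP70 genes, HSPA8, the constitutive cytosolic HSP70 of neurons and other cells, rose in M1 on a pair of its probe sets. On the probe set with the larger change the A46 arrays read 10.94 to 11.19 (median 11.01), PMv 11.07 to 11.26 (median 11.21), PMd 11.04 to 11.37 (median 11.20) and M1 11.19 to 11.56 (median 11.40). The ranges crossed only between the right A46 array of animal 1 and the right M1 array of animal 3, and M1 exceeded A46 by 0.38, 0.40 and 0.23 within animals 1, 2 and 3. The difference was 0.33 (SE 0.06, 1.26-fold higher, limma adjusted p = 0.00177). The other called HSPA8 probe set gave 0.24 (SE 0.06, limma adjusted p = 0.0269) and a dim one 0.14 (SE 0.08, limma adjusted p = 0.306).

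HSPA12A, a distant member of the HSP70 family abundant in brain, separated M1 from A46 without overlap. Its A46 arrays lay between 10.21 and 10.42 (median 10.31), PMv between 10.06 and 10.55 (median 10.46), PMd between 10.41 and 10.71 (median 10.55) and M1 between 10.54 and 10.72 (median 10.63). It was the 1 chaperone probe set with all M1 arrays above all A46 arrays, against 4.78% of all tested probe sets. M1 exceeded A46 by 0.32 (SE 0.06, 1.25-fold, limma adjusted p = 0.00282) and PMd exceeded A46 by 0.25 (SE 0.06, limma adjusted p = 0.0492). The order was M1, PMd, PMv, A46 from high to low, with 10.63 ± 0.04 in M1 and 10.55 ± 0.01 in PMd, a difference that was not called. The PMd call was lost without animal 1 or 2 (limma adjusted p = 0.285 and 0.857).

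HSPA9 (mortalin), the HSP70 of the mitochondrial matrix, read 8.38 to 8.70 in A46 (median 8.63) and 8.69 to 8.96 in M1 (median 8.86) on its called probe set. The ranges crossed only between the left A46 array of animal 3 and the right M1 array of animal 2. The difference was 0.23 (SE 0.07, limma adjusted p = 0.0381), and a second HSPA9 probe set gave 0.23 (SE 0.07, limma adjusted p = 0.0583). Both probe sets were higher in M1 in 3 of 3 animals.

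Leaving out animal 2 ended each of these HSP70 calls. That fit called 1.53% of all tested probe sets between M1 and A46, against 12.9% with all animals. Without animal 2 the limma adjusted p was 0.18 and 0.378 for the called HSPA8 probe sets, 0.133 for HSPA12A and 0.523 for HSPA9. Without animal 1 the larger HSPA8 change and HSPA12A kept their call (limma adjusted p = 0.0333 and 0.0276) and the other HSPA8 probe set and HSPA9 did not (0.153 and 0.111). Without animal 3 the limma adjusted p was 0.00012 and 0.00209 for the called HSPA8 probe sets, 0.00248 for HSPA12A and 0.0366 for HSPA9.

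The remaining HSP70 genes did not pass in any comparison of areas. HSPA4L, an exchange factor of the HSP110 type filed under HSPA, read 5.76 to 6.33 in A46 and 5.89 to 6.66 in M1 (0.31, SE 0.11, limma adjusted p = 0.0869, higher in 3 of 3 animals). HSPA4, of the same type, had 6 tested probe sets with M1 differences between -0.07 and 0.21. HSPA6, a strictly stress-inducible HSP70, sat near the filter with every array between 5.45 and 6.13. HSPA12B, a relative of HSPA12A known from endothelial cells, gave -0.09 and 0.08 on its probe sets. HSPH1, the HSP110 of the cytosol, had 4 tested probe sets with M1 differences of -0.05, -0.04, 0.03 and 0.10 (SE 0.14, 0.14, 0.09 and 0.14).

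DNAJA4, a J-domain protein that hands clients to HSP70, had the largest difference between M1 and A46 of all 83 tested probe sets. Its arrays read 8.58 to 8.97 in A46 (median 8.79), 8.42 to 8.67 in PMv (median 8.52), 8.14 to 8.63 in PMd (median 8.41) and 7.85 to 8.46 in M1 (median 8.19). Every M1 array was below every A46 array, and the fall from A46 to M1 was 0.58, 0.61 and 0.64 on the log2 scale in animals 1, 2 and 3. The difference was -0.61 (SE 0.07, 1.53-fold lower, limma adjusted p = 0.0001). It passed without animal 1, 2 or 3 (limma adjusted p = 0.00134, 0.0252 and 6e-05), the only chaperone probe set to pass in each of these.

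With all 3 animals DNAJA4 was also the 1 member called between motor areas; without animal 3 the comparisons of M1 and PMd with PMv called 27 and 13. M1 was below PMv by 0.36 on the log2 scale (limma adjusted p = 0.0221) and below the mean of both premotor areas (-0.29, SE 0.06, limma adjusted p = 0.0253). PMd was below A46 (-0.39, SE 0.07, limma adjusted p = 0.0135), whereas PMv against A46 missed the threshold (-0.25, SE 0.07, limma adjusted p = 0.0881). These 3 calls were lost without animal 2 (limma adjusted p = 0.57, 0.683 and 0.543), and without animal 1 (0.0587, 0.0623 and 0.109). Of all tested probe sets the 3 comparisons called 0.0796%, 0.0948% and 0.0455% without animal 2. Without animal 1 they called 0.258%, 0.754% and 0.152%. A second DNAJA4 probe set fell in M1 by 0.43 on the log2 scale (SE 0.09, limma adjusted p = 0.00944), a call that was lost without animal 2 (0.197). Another, below the intensity filter, read 5.25 to 5.84 over all arrays.

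DNAJB5, a J-domain protein close in sequence to DNAJB1, was lower in M1. The called probe set read 7.72 to 8.13 in A46 (median 7.84) and 7.39 to 7.85 in M1 (median 7.57), overlapping only through the right M1 array of animal 3. The difference was -0.27 (SE 0.06, limma adjusted p = 0.0148) and was lost without animal 1 or 2 (limma adjusted p = 0.119 and 0.267). The other DNAJB5 probe set gave -0.22 (SE 0.07, limma adjusted p = 0.0622), and there every M1 array (8.68 to 8.80) lay below every A46 array (8.87 to 9.08). With DNAJA4 and HSP90AB1 this made 3 chaperone probe sets with all M1 arrays below all A46 arrays (3.61%, against 3.89% of all tested probe sets).

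**Figure D2:**
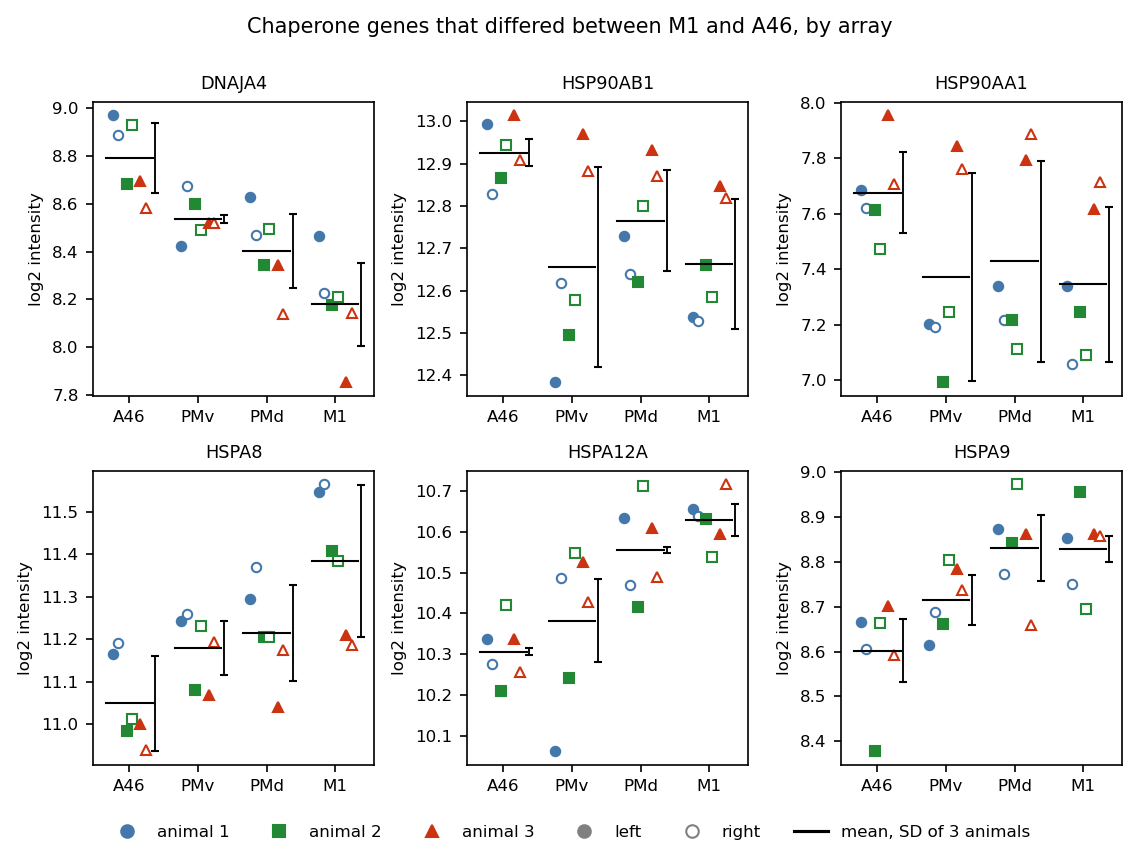
Log2 intensity (y axes) of 6 chaperone probe sets on each array, by area (x axes). Marker shape and colour give the animal, filled markers the left and open markers the right hemisphere, and the line and bar the mean and SD of 3 animals; the means of DNAJA4 and HSP90AB1 are highest in A46 and those of HSPA8 and HSPA12A in M1.

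Other J-domain genes of the cytosol did not pass between M1 and A46. DNAJA1 and DNAJA2, general HSP70 partners, differed by -0.04 to 0.04 over 4 probe sets. DNAJB1, the partner induced with HSP70 in the heat shock response, gave -0.01 (SE 0.09) and 0.09 (SE 0.06). DNAJB2, enriched in neurons, gave -0.01 (SE 0.06), and DNAJB6, a suppressor of polyglutamine aggregation, gave -0.05, 0.02 and 0.07. DNAJB4 read 7.20 to 7.44 in A46 and 7.38 to 7.74 in M1 (0.25, SE 0.10, limma adjusted p = 0.134). DNAJC6, the auxilin of nerve terminals, differed by 0.07 (SE 0.07, limma adjusted p = 0.592).

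Of 29 DNAJC probe sets, none passed between M1 and A46 by limma, 3 had an unadjusted p under 0.05 (10.3%, against 25.9% of all tested probe sets), and 1 passed over the 3 motor areas. That was DNAJC25, a membrane-anchored J-domain protein, which read 8.56 to 8.85 in A46 (median 8.72), 8.77 to 9.16 in PMv (median 9.09), 8.53 to 9.13 in PMd (median 8.94) and 8.61 to 9.14 in M1 (median 9.02). Motor areas exceeded A46 by 0.23 (SE 0.06, limma adjusted p = 0.0307), with limma adjusted p = 0.212 without animal 1 and 0.592 without animal 2. Within animal 3 its M1 and A46 levels differed by 0.02. DNAJC21, a factor of ribosome assembly, gave 0.25 for M1 over A46 (SE 0.08, limma adjusted p = 0.0658).

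DNAJB11 and DNAJC1 act in or at the endoplasmic reticulum, and neither passed. DNAJB11 differed between M1 and A46 by -0.06 and 0.07, and DNAJC1 by -0.14 and -0.10. Small heat shock proteins likewise gave no call: HSPB6, HSPB7 and HSPB8 ranged from -0.10 to 0.07 over 6 probe sets. HSPBP1, which shares the HSPB letters but is an exchange factor of HSP70, read 9.95 to 10.21 in A46 (median 10.03) and 9.75 to 10.04 in M1 (median 9.84). It fell by 0.18 on the log2 scale (SE 0.05, limma adjusted p = 0.0429), and the call was lost without animal 1, 2 or 3 (0.115, 0.58 and 0.061). HSPBAP1, a protein that binds HSPB1, gave 0.11 (SE 0.09, limma adjusted p = 0.512).

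The log2 ratio of 3-prime to 5-prime actin probe sets, which rises as RNA degrades, was 0.82 to 1.23 in A46, 0.81 to 1.07 in M1, 0.77 to 1.16 in PMd and 0.88 to 1.32 in PMv. The same ratio for GAPDH ran the other way between the compared areas, with a median of 0.84 in A46 and 0.95 in M1, where actin had 1.09 and 0.94. There were 22 calls on single probe sets between M1 or all motor areas and A46. With the actin ratio as a covariate beside animal 19 of them were lost, with the GAPDH ratio, added after seeing the data, 15 were, and with arrays centred on their median 16 were. Quantile normalization kept all 22, as did a covariate for each array's log2 spread and a fit without the left PMv arrays of animals 1 and 2, both chosen after seeing the data.

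The animals differed more than the areas. Over the 83 tested probe sets animal accounted for 58.8% of the pooled variance of the animal-by-area means and area for 19.2%, against 48.3% and 29.1% over all tested probe sets. Animal 3 had the highest of the 3 animal means on 57 of 83 chaperone probe sets (68.7%), against 42.1% of all tested probe sets. It was highest in each of the 4 areas on 24 (28.9%, against 9.41%). These are counts with no test, since each number is 1 animal, and sex cannot be told apart from the animal.

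By family, animal 3 was highest on 4 of 4 HSP110, 5 of 5 HSP90, 14 of 16 HSP70, 6 of 7 DNAJA and 9 of 14 DNAJB probe sets. These probe sets come from 1, 3, 7, 4 and 7 genes in that order, so they are not independent. Of all tested probe sets 42.1% were highest in animal 3. DNAJC was more evenly split, with 15 of 29 highest in animal 3 and 13 in animal 1. The small heat shock proteins had 3 of 6 highest in animal 3. The median deviation of animal 3 from the mean of the animals was 0.36 for HSP110, 0.19 for HSP90 and 0.13 for HSP70, against 0.011 over all tested probe sets. HSP70 here includes HSPA4 and HSPA4L, exchange factors of the HSP110 type, whereas both called HSPA8 probe sets were highest in animal 1.

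HSPH1 gives an example on arrays. On one of its probe sets A46 read 9.35 and 9.17 in animal 1 (left, then right), 9.23 and 9.27 in animal 2 and 9.32 and 9.30 in animal 3. In PMv the arrays read 8.54 and 8.71, 8.86 and 8.98, and 9.83 and 9.57. In M1 they read 8.95 and 8.85, 9.13 and 9.08, and 9.68 and 9.72. The 3 animals were alike in A46 (9.27 ± 0.03) and apart in PMv (9.08 ± 0.55), where animal 3 was high and animals 1 and 2 were low.

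HSPA4 repeated this on the probe set with the lowest single array. Its A46 arrays lay between 6.54 and 6.73 in all animals, with 6.64 ± 0.04 as the mean. Its PMv arrays read 5.28 and 6.13 in animal 1, 5.68 and 6.39 in animal 2, and 6.93 and 7.05 in animal 3. The left PMd array of animal 2 was low as well (5.65), beside 6.53 on the right.

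DNAJA1 showed the same separation, with PMv at 8.77 and 9.41 in animal 1, 9.14 and 9.49 in animal 2 and 10.06 and 9.78 in animal 3, and A46 between 9.51 and 9.82 in all. DNAJB1 was high in animal 3 and low in animal 1 in every area. Its animal means were 7.72, 8.07 and 8.43 in the order 1, 2, 3, and its PMv arrays read 7.61 and 7.33, 7.62 and 7.98, and 8.53 and 8.38. HSP90AA1 had animal means of 7.33, 7.25 and 7.79.

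**Figure D3:**
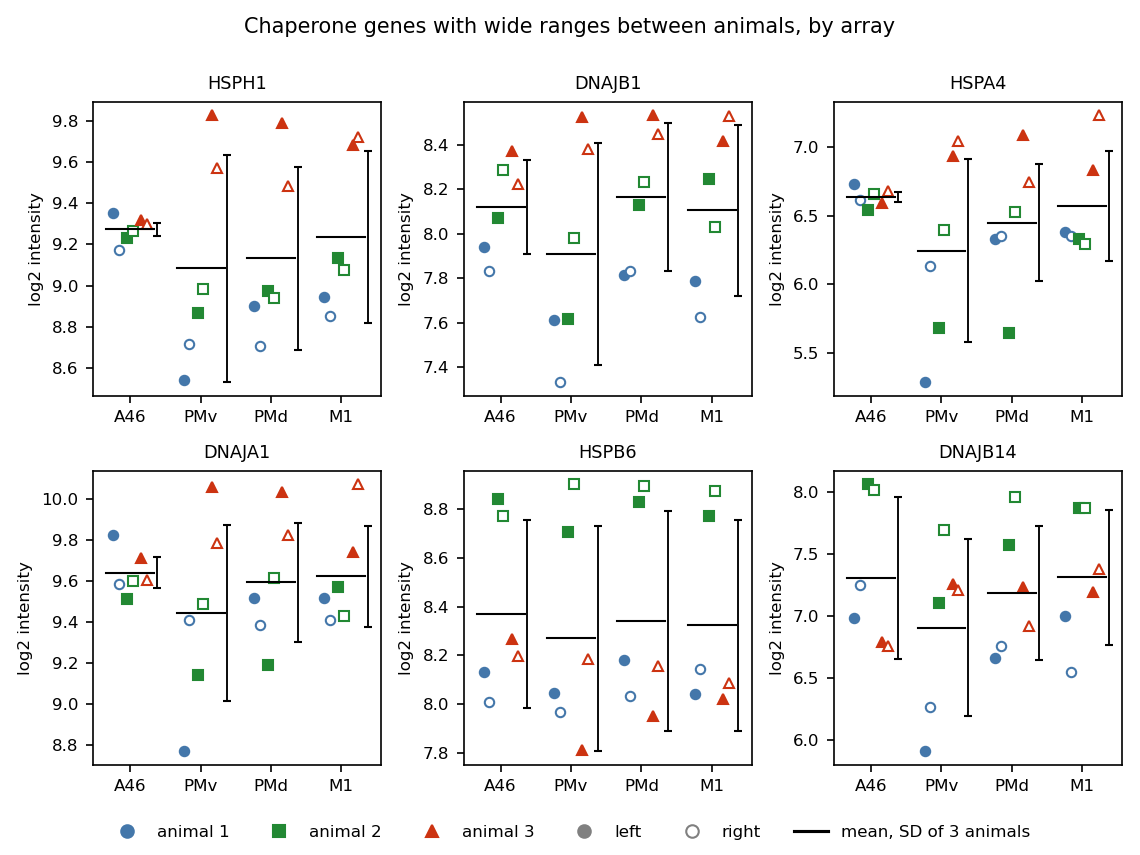
Log2 intensity (y axes) of 6 chaperone probe sets on each array, by area (x axes), with markers as for the called genes: shape and colour for the animal, filled left, open right, line and bar for the mean and SD of 3 animals. HSPH1, HSPA4 and DNAJA1 of animal 3 lie above the other animals outside A46, while HSPB6 and DNAJB14 are highest in animal 2.

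Other members followed other animals. Animal 1 was highest in each of the 4 areas on 9 of the 83 (10.8%, against 4.86% of all tested probe sets). Among these were both called HSPA8 probe sets, the DNAJA4 probe set with the largest difference, and HSPBP1. Animal 3 was lowest in each area on 5 (6.02%, against 5.69%). They included that DNAJA4 probe set, HSPBP1, DNAJC25 and the HSPA8 probe set with the larger change. HSPB6, a small heat shock protein known from muscle, on one probe set read 8.71 to 8.90 on the arrays of animal 2 and 7.81 to 8.27 on those of animals 1 and 3, with no overlap (0.451% of all tested probe sets separate animal 2 upward in this way). On its other probe set animal 2 was again highest (7.77, against 7.36 and 7.30), but its lowest array (7.56) lay below the highest of animal 1 (7.61). DNAJB14, a J-domain protein of the endoplasmic reticulum membrane, had the widest range of animal means on one probe set (6.68, 7.77 and 7.10), while its other 2 probe sets had 6.85, 7.09 and 7.19 and 8.28, 8.57 and 8.51. DNAJC27 on one probe set was highest in animal 1 (7.93 against 7.30 and 7.41) and its 8 arrays of that animal lay above the other 16 (0.413% of all tested), whereas its other 3 probe sets had animal means within 0.11 of each other. Probe sets of DNAJB14 and of DNAJC27 thus disagreed on the size of the difference between animals.

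The animals parted in the motor areas against A46, most widely in PMv. PMv was below A46 on 70 of 83 chaperone probe sets in animal 1, 62 in animal 2 and 23 in animal 3. The shares over all tested probe sets were 59.8%, 53.9% and 46.6%. On 42 (50.6%) it was below A46 in animals 1 and 2 and above it in animal 3 (27.5% of all tested). Both PMv arrays of animal 3 lay above the 4 PMv arrays of the other animals on 47 (56.6%, against 27.1%). M1 was below A46 on 55, 41 and 27 chaperone probe sets in animals 1, 2 and 3 (53.5%, 51.3% and 50.5% of all tested). PMd was below A46 on 50, 45 and 29 (52%, 48.1% and 48.5% of all tested).

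**Figure D4:**
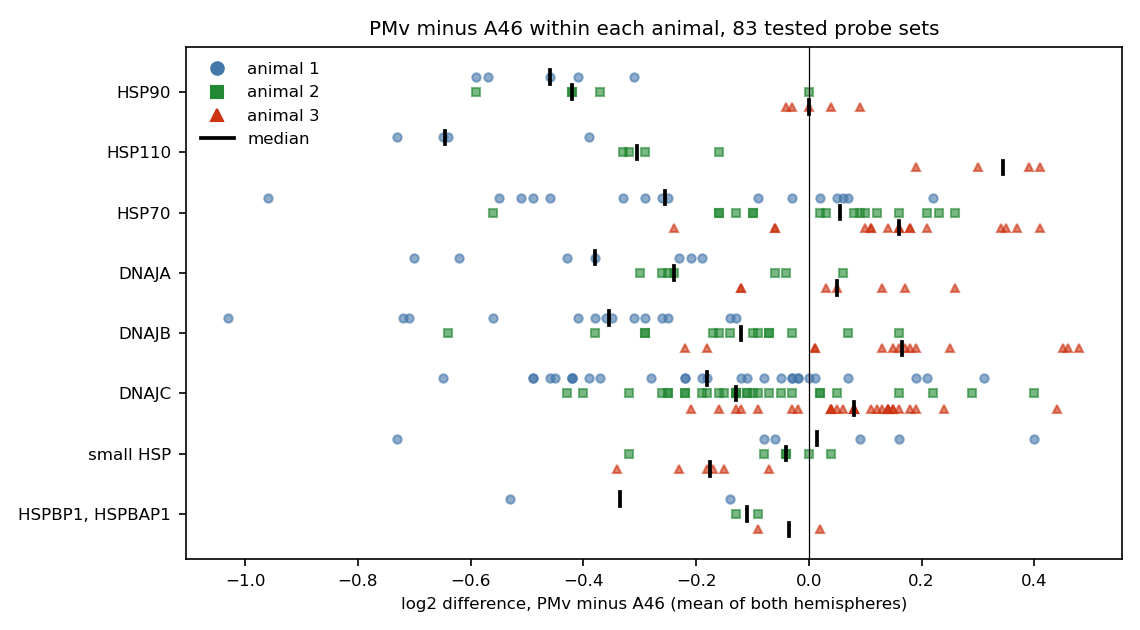
Log2 difference between PMv and A46 within each animal (x axis, mean of both hemispheres) for the 83 tested probe sets by family (y axis), with the median as a black bar. HSP110 medians are -0.64, -0.31 and 0.35 in animals 1, 2 and 3, and the small heat shock proteins do not show this order.

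The median PMv difference from A46 in animals 1, 2 and 3 was -0.64, -0.31 and 0.35 for HSP110, which is 1 gene. It was -0.46, -0.42 and 0.01 for HSP90 and -0.35, -0.12 and 0.16 for DNAJB. For HSP70 it was -0.255, 0.053 and 0.16, with animal 2 on the side of animal 3. For the small heat shock proteins it was 0.015, -0.039 and -0.177. Over all chaperone probe sets it was -0.29, -0.11 and 0.11, and over all tested probe sets -0.07, -0.02 and 0.01. Without animal 3, PMv against A46 called 38 of the 83 by limma (45.8%, against 26.6% of all tested probe sets), 37 of them lower (19.3% of all tested were). With all 3 animals it called none. Without the left PMv arrays of animals 1 and 2, an alternative added after seeing the data, it called 4 of 83 (691 of all 26383 tested): DNAJB5 and HSP90AB1 lower, DNAJC25 and HSPA12A higher.

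Technical measures differed between these arrays as well. The actin 3-prime to 5-prime log2 ratio of the PMv arrays was 1.16 and 1.32 in animal 1, 1.02 and 1.18 in animal 2 and 0.88 and 1.06 in animal 3, and over all 8 arrays of an animal the medians were 1.12, 1.05 and 0.87. For GAPDH the medians of the PMv pairs were 0.99, 0.86 and 0.92 and those of all 8 arrays 0.95, 0.89 and 0.89, so on this ratio animal 3 was not apart from animal 2. The narrow left PMv arrays belong to animals 1 and 2. After quantile normalization, added after seeing the data, PMv was below A46 on 57, 59 and 32 chaperone probe sets in animals 1, 2 and 3, against 47.8%, 50.5% and 53.4% of all tested. Animal 3 then had the highest mean on 52, against 35% of all tested. On right hemispheres alone, which leaves out the narrow arrays, PMv was below A46 on 62, 53 and 19 (53.4%, 50.1% and 43.2% of all tested). The part of RNA integrity in these counts was not tested.

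Left and right hemispheres gave no call among the 83 probe sets by limma (background 0.144%), with 8 at an unadjusted p under 0.05 (9.64%, against 7.61% of all tested). The largest differences were each on 1 probe set of a gene. They were HSPA4 (-0.22 for left minus right, SE 0.06, limma adjusted p = 0.154), HSPA12B (-0.19, SE 0.06, 0.264) and HSPA8 (-0.15, SE 0.04, 0.224). All were lower on the left in 3 of 3 animals. This HSPA4 probe set passed when animal 3 was left out (limma adjusted p = 0.00794, with 1% of all tested called). The pairs that hold the narrow left PMv arrays were among those farthest apart. The HSPA4 probe set differed between the sides of PMv by -0.85 in animal 1, -0.71 in animal 2 and -0.11 in animal 3. In PMd of animal 2 it differed by -0.88. The HSPA8 probe set differed in PMv by -0.40, -0.54 and -0.13, and HSPA12B by -0.41, -0.33 and -0.21. Without PMv, an alternative added after seeing the data, left minus right was -0.11 for HSPA4 (SE 0.07), -0.15 for HSPA12B (SE 0.06) and -0.08 for HSPA8 (SE 0.04), each with a limma adjusted p of 1. On the other tested probe sets of these genes, left minus right without PMv was -0.04 to 0.08 for HSPA4. It was -0.06 for HSPA12B and -0.01 and -0.02 for HSPA8. A left-right difference that varied with area was not called either (background 0%), with 3 at an unadjusted p under 0.05 (3.61%, against 4.65% of all tested).

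The partners of these families were read from fixed lists, with 1 probe set a gene. Of 23 tested heat shock factors and cochaperones, 1 rose in M1 over A46 and none fell: BAG3, which joins HSP70 to HSPB8, by 0.24 (SE 0.07, limma adjusted p = 0.0376). That is 4.35% of the list, against 12.9% of all tested probe sets called between M1 and A46. The median of this list was -0.004 on the log2 scale. HSF1 read 8.09 ± 0.07 in A46 and 8.03 ± 0.10 in M1, and STIP1, which bridges HSP70 and HSP90, read 9.17 ± 0.05 and 9.22 ± 0.08, neither called. Of 12 tested subunits of the cytosolic chaperonin and prefoldin, PFDN1 (0.25, SE 0.06, limma adjusted p = 0.00931) and TCP1 (0.21, SE 0.06, 0.0267) rose and none fell (16.7% of the list).

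Of 17 tested genes of endoplasmic reticulum folding and the unfolded protein response, DDIT3, a transcription factor of that response, rose by 0.27 (SE 0.08, limma adjusted p = 0.0321) and none fell (5.88% of the list). Each of the BAG3, PFDN1, TCP1 and DDIT3 calls was lost without animal 2 (limma adjusted p = 0.317, 0.281, 0.373 and 0.471). They were lost without animal 1 as well (0.185, 0.104, 0.195 and 0.245). BAG3 was also lost without animal 3 (0.102). Between M1 and A46, 1.53% of all tested probe sets passed without animal 2, 6.25% without animal 1 and 20.5% without animal 3.

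Of 10 other tested stress chaperones and heat shock targets, CRYAB and MT2A rose (20% of the list, beside 12.9% of all tested probe sets). CRYAB, the small heat shock protein alphaB-crystallin, which the symbol rule does not take in, read 10.02 ± 0.06 in A46, 10.66 ± 0.26 in PMd, 10.68 ± 0.22 in PMv and 11.15 ± 0.37 in M1. M1 exceeded A46 by 1.12 (SE 0.12, 2.18-fold, limma adjusted p = 7.06e-05), and the call held without animal 1, 2 or 3 (0.00123, 0.0068 and 1.2e-06). CRYAB is strongly expressed by oligodendrocytes, whose markers moved the same way, and their part in its difference was not tested. MT2A, a metal-binding metallothionein, rose by 0.39 (SE 0.06, limma adjusted p = 0.00161, and 0.107 without animal 2), and its animal means were 10.27, 10.71 and 10.06.

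Animal 3 was highest for 11 of 23 heat shock factors and cochaperones, 7 of 12 chaperonin and prefoldin genes, 11 of 17 endoplasmic reticulum genes and 2 of 10 other stress genes, where 42.1% of all tested probe sets were highest in it. Among the tested genes of these lists, the widest ranges of animal means after MT2A were in PDIA6, an oxidoreductase of the endoplasmic reticulum (8.81 in animal 1 and 9.25 in animal 3), and BAG2, an HSP70 cochaperone (6.01, 5.97 and 6.39), both highest in animal 3. Below the intensity filter SGTB, an HSP70 cochaperone of neurons, ranged more widely (5.11, 4.75 and 6.04), as did ERO1B, an oxidase of the endoplasmic reticulum (4.90, 4.87 and 5.46). PFDN5, a prefoldin subunit, was highest in animal 1 (9.72, 9.34 and 9.36).

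The 26 chaperone probe sets below the intensity filter had means between 3.19 and 5.59 on the log2 scale and were not tested. For 7 genes every probe set (9 in all) lay there: DNAJB7, DNAJB8, DNAJC12, DNAJC22, DNAJC28, HSPB3 and HSPB9. Among them DNAJB7 read 3.19 to 3.53 and HSPB3, a small heat shock protein of muscle, read 4.35 to 5.55 over the 24 arrays. The other 17 probe sets belong to genes that also have a tested probe set, such as HSP90AB1, with a dim one at 4.05 to 4.74, and HSPH1, with a pair at 3.00 to 3.83.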

How the data were processed

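The deposited values are intensities on a linear scale, one per probe set and array, processed with RMA per the submitters' processing notes; its settings are not given in these sources. Values were floored at 1 and taken as log2, and hemispheres were averaged per animal and area. limma 3.58.1 in R 4.3.3 (lmFit, eBayes with trend) was fitted to all 26383 probe sets past the intensity filter, with area and animal as terms and a threshold of 0.05 after Benjamini-Hochberg adjustment; the procedure was tested on simulated data. The animal numbers of the labels pair the samples, since all areas come from the same animals. Deviations from the area means correlated between areas of 1 animal at 0.207 to 0.85 over 18 pairs. Between areas of different animals they correlated at -0.561 to 0.065 over 36 pairs. Taking deviations from a mean of 3 animals itself makes the latter more negative. Only 3 animals limit the precision.

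The members, lists and tests were chosen with earlier results of these data known. Genes were named by a fixed list of 42 symbols, by passing a test, by the largest difference in a comparison, or by the widest range between animals or arrays. DNAJB7, DNAJB8, DNAJC22, DNAJC28 and HSPB9 fall outside it and were named after their values were seen. Probe sets of 1 gene were kept apart. Symbols came from the platform annotation, and all 109 probe sets matched a current Entrez gene. A probe set that lists DNAJA1 with another gene was left out. No sequence or coordinate was used here.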

Additional observations from a re-analysis of the deposited data

Results flagged for a closer look

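Of 136 groups of 6 arrays checked (34 genes in 4 areas), 5 held an array far from the other 5. Chance flags about 1 in 20, so 5 of 136 is no more than chance gives. In PMv the left array of animal 1 was low for DNAJB2 (8.56, the others 8.77 to 8.82 at the nearest and farthest) and for DNAJC27 (7.96, against 8.34 to 8.49). The left PMv array of animal 2 was low for DNAJC4 (7.97, against 8.28 to 8.45). These are the arrays with the narrowest spread of log2 values. The right PMv array of animal 1 was high for HSPB7 (6.48, against 6.14 to 6.26), and the left PMd array of animal 3 was high for HSPA4L (6.60, against 6.13 to 6.28).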

How the results depend on the processing

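Counts of called chaperone probe sets moved with the processing more than the sizes of the differences, and no called difference changed sign. The share called over all tested probe sets, given in parentheses after each count, moved as well. For any area difference, 5 called (6.53%), the count was 11 with all 24 arrays and a random block for each animal and area (11.8%), 9 after quantile normalization (9.79%), 3 with no intensity filter (3.26%), 1 with the actin ratio as covariate (1.32%), 1 with the GAPDH ratio (3.91%), 1 with arrays centred on their median (3.52%) and 0 with no replicate block (1.09%). For M1 against A46, 11 called (12.9%), it was 7 without the trend (11.9%), 4 with centring (8.15%), 2 with no replicate block (4%) and 1 with the actin ratio (2.44%). For motor areas against A46, 11 called (9.96%), it was 3 with the GAPDH ratio (5.3%), 2 with the actin ratio (3.15%), 2 with centring (5.34%) and 1 with no replicate block (1.82%). For M1 against premotor areas, 1 called (2.16%), it was 2 with the random block (3.66%), 2 after quantile normalization (3.54%) and 0 with the actin ratio (0.0152%), with centring (0.94%) or with no replicate block (0.0417%). For PMd against A46, 2 called (1.95%), it was 1 without the trend (1.45%), with log2(intensity + 16) (1.89%) or with no filter (0.855%), and 0 with the actin ratio (0.129%), the GAPDH ratio (2.05%), centring (0.754%) or no replicate block (0.0303%). For PMv against A46, 0 called (1.23%), it was 6 with the random block (4.62%), 3 after quantile normalization (3.06%), 1 with the GAPDH ratio (1.18%) and 1 with the stricter filter (2.66%). For M1 against PMv, 1 called (1.87%), it was 4 with the GAPDH ratio (3.75%), 3 with the random block (3.78%), 3 with the stricter filter (3.6%), 2 after quantile normalization (3.03%) and 0 with the actin ratio (0.00379%), with centring (0.629%) or with no replicate block (0.0152%). With the spread of log2 values as covariate, added after seeing the data, the counts were 18 for any area (15.7%), 21 for M1 (24.3%), 21 for motor areas (21.5%), 9 for PMd (8.66%) and 5 for PMv (3.05%) against A46, and 1 for M1 against PMd (2.45%). Without the left PMv arrays of animals 1 and 2, also added, they were 10 for any area (10%), 2 for M1 against premotor areas (3.27%) and 4 for PMv against A46 (2.62%). The GAPDH covariate was added after seeing the data too.

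Leaving out each animal gave 0 to 41 for any area, 1 to 17 for M1 against A46, 0 to 31 for motor areas, 0 to 17 for PMd and 0 to 38 for PMv against A46, 0 to 27 for M1 against PMv, 0 to 4 for M1 against premotor areas, 0 to 13 for PMd against PMv and 0 to 1 for left against right, the highest each time without animal 3. The shares of all tested probe sets called without animal 3 were 29.4%, 20.5%, 24.5%, 11.6%, 26.6%, 14.5%, 5.19%, 5.3% and 1% in the same order, so that the 17 for M1 against A46 (20.5% of 83) equalled the share over all. Without animal 1 these shares were 2.31%, 6.25%, 3.26%, 0.152%, 0.178%, 0.258%, 0.754%, 0.00379% and 0.519%. Without animal 2 they were 0.489%, 1.53%, 0.682%, 0.0455%, 0.00379%, 0.0796%, 0.0948%, 0% and 0.523%. Of 22 called differences on single probe sets, log2(intensity + 16) kept 22, the stricter filter 20 of those it tested, the random block 21 and no filter 19, and 3 passed with no replicate block. The counts by animal moved by less than 1.5 times under quantile normalization, centring and right hemispheres alone. The cause of these changes was not tested, and with fewer animals the fit has fewer samples. Array data carry no counting depth, so the number of animals sets the precision.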
